A study of Mus musculus with 2 samples.

Results

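The 10 genes described here belong to antibody-secreting cells and to the immunoglobulin heavy chain locus, and were read in sorted red pulp macrophages of the mouse spleen, on 1 array labelled SIRPα-KO (the KO-labelled array) and 1 WT array. They were Jchain, Adam6a, Ighm, Derl3, Mzb1, Fkbp11, Xbp1, Prdm1, Sdc1 and Tnfrsf17. A probe was taken as a member when its RefSeq accession belonged to 1 of these 10 genes, when it was no control and when its spots carried no outlier flag. This gave 9 probes for 9 genes, of 39386 probes and 20638 named genes in all. Ighm has no transcript accession in the naming table and was not analysed here. The 10 genes were chosen by the scaled processed signal of SIRPα-KO against WT, the comparison given here, so their differences are a description and support nothing further.

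Both groups were spleen cells sorted by flow cytometry for F4/80 and low CD11b, and globin transcripts were depleted from their RNA. SIRPα is an inhibitory receptor of myeloid cells, and the label SIRPα-KO stands for mice that lack it. The KO-labelled array held RNA of cells mixed from 5 SIRPα-KO mice, and the WT array that of cells mixed from 5 WT mice. Age, sex, background strain and the knockout allele are not stated in the sources. With 1 pool per genotype there was no spread between samples and no test. A gene was called by size alone, when the arrays differed 2-fold or more, which is 1 on the log2 scale.

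Plasma cells are the end stage of the B lineage and secrete antibody in very large amounts, which loads their endoplasmic reticulum (ER) with immunoglobulin chains. Prdm1 and Xbp1 encode the transcription factors that drive this state, Derl3, Mzb1 and Fkbp11 encode proteins that fold or dispose of secretory cargo in the ER, and Sdc1 and Tnfrsf17 encode surface proteins by which such cells are recognised. The red pulp, where these macrophages live, is also a site where antibody-secreting cells lodge. Several of these genes are not restricted to plasma cells: Xbp1 and Prdm1 are used by macrophages and other cells as well.

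The promoters of the 3 genes past 2-fold are shown, since the result turns on these genes. Each is the stretch of 250 bases before the RefSeq gene start (assembly GRCm38.p6), with matches to the searched motifs in capitals.
Jchain, chr5:88527898-88528147, minus strand: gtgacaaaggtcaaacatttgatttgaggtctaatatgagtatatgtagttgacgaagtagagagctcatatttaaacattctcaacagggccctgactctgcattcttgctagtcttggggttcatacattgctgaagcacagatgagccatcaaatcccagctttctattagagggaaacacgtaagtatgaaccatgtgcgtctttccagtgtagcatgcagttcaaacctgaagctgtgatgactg
Adam6a, chr12:113543658-113543907, plus strand: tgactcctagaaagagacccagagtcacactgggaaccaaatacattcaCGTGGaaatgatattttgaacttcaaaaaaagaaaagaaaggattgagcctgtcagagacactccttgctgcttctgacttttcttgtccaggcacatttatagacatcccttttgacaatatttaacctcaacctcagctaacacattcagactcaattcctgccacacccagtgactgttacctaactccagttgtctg
Derl3, chr10:75893148-75893397, plus strand: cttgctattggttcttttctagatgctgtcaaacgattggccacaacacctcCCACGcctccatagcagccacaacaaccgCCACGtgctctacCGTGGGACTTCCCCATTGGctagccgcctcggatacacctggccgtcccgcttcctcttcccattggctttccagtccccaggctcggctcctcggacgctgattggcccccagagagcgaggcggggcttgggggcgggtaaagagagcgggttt
The motifs, searched on both strands in 9 promoters of 8 member genes (all but Ighm and Mzb1), were CCACG, the core bound by XBP1 and ATF6; the full ER stress response element, CCAAT and CCACG with 9 bases between; its second form, ATTGG and CCACG with 1 base between; the element TGACGTGG; and the octamer ATTTGCAT of immunoglobulin promoters. The longer ER stress motifs contain CCACG or its complement. The Derl3 promoter held 3 matches to CCACG, 1 of them inside a full ER stress response element on the minus strand. That full element stood in 1 of the 9 member promoters and in 37 of 32851 promoters of the same length (0.113%). CCACG alone is common, in 28.3% of promoters, and it stood in 5 of the 9 member promoters. The single match in Adam6a is of that kind, as are the matches in Sdc1, Prdm1 and Fkbp11, which were not called. The second form (0.0304% of promoters), TGACGTGG (0.563%) and ATTTGCAT (1.6%) had no match in these windows. The sequence of the array probes is not used here.

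As a check of the labels, Sirpa, the gene targeted in the knockout, had a signal of 1006 on the KO-labelled array and 795 on the WT array. Its difference was 0.51 ± 0.20 on the log2 scale, which does not bear out the label. The sources do not place the probe inside or outside the deleted part, and outside it the check would be void. Every direction below therefore follows the label alone. The share of the 39386 probes well above background was 65.3% on the KO-labelled array and 71.5% on the WT array, and both arrays were read in 1 scan of 1 slide. Values are processed signals (intensity), and differences are log2 signals, each relative to the 75th percentile of its array (a signal of 89.1 on the KO-labelled array and 100.2 on the WT array), SIRPα-KO minus WT. The error after ± combines, on the log2 scale, the signal errors that the scanner software gave for the spot on each array. It covers the spot measurement only.

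Of the 9 genes with a probe, 3 passed the 2-fold limit as lower on the KO-labelled array and 0 as higher. Over all 15823 measured genes, 5.42% passed it as lower and 3.11% as higher, and nothing is read from the members' count beside these shares. The members did not differ as a block: their differences ran from at most -3.92 for Adam6a to 0.59 for Fkbp11. Their median of -0.24 was the bound of Tnfrsf17, whose own value was -1.80, so it is only an upper limit. The median over all measured genes was -0.08. Of the 9 probes, 6 were well above background on the KO-labelled array and all 9 on the WT array. Each gene had 1 probe, so no difference has a second probe as a check. The called gene nearest to the 2-fold limit was Derl3, at 2.09-fold lower, and the nearest not called was Sdc1, whose value is a bound of at least 1.65-fold lower.

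**Figure D1:**
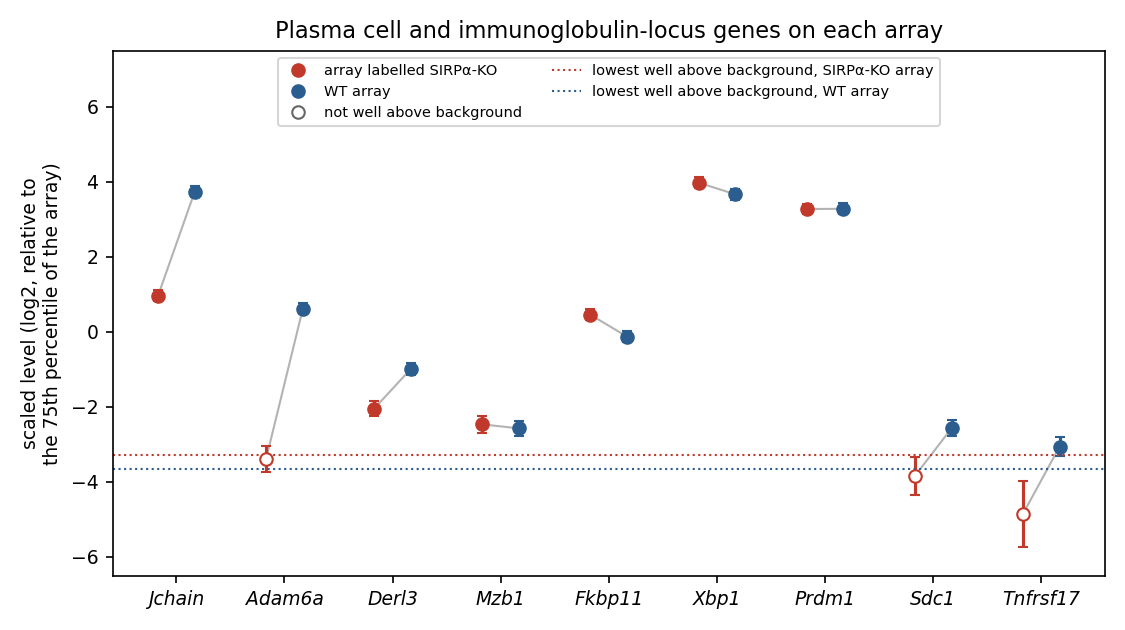
Scaled level of each gene (vertical axis, log2 relative to the 75th percentile of its array) on the KO-labelled array (left, red) and the WT array (right, blue); bars are the software's signal error of 1 array, open points were not well above background, and dotted lines mark the lowest value well above background on each array. Jchain, Adam6a and Derl3 sit lower on the KO-labelled array with differences of -2.78, at most -3.92 and -1.06, whereas the points of Xbp1 and Prdm1 lie close together.

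Jchain encodes the joining chain that links immunoglobulin M and A units into polymers, and it is among the most abundant transcripts of antibody-secreting cells. Its probe had a signal of 174 ± 17.5 on the KO-labelled array and 1343 ± 134 on the WT array, where the ± is the software's signal error. The difference was -2.78 ± 0.20, or 6.88-fold lower. On both arrays the spot was far above the lowest signal counted as well above background, which was 9.09 on the KO-labelled array and 7.92 on the WT array. The raw spot brightness, before any correction, was 213.5 over a local background of 17 on the KO-labelled array, against 1459 over 19 on the WT array. Only 36 of 15823 measured genes (0.228%), Jchain included, were as low or lower. With measured genes split by mean level into 4 equal groups, Jchain fell in the brightest, where 12.4% of genes passed the limit as lower and 2.55% as higher. Adam6a and Derl3 fell in the second dimmest, where these shares were 2.83% and 3.41%.

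Adam6a lies inside the heavy chain locus, among the gene segments from which the antibody variable region is assembled, and its protein, a member of the ADAM family, is known in mice for a role in male fertility. Its signal was 8.54 ± 2.03 on the KO-labelled array and 155 ± 15.5 on the WT array. The spot on the KO-labelled array was not well above background, so the difference is a bound, at least 15.1-fold lower (at most -3.92). Among 1434 genes well above background on the WT array alone, 76 (5.3%) reached the 2-fold limit. After normexp background correction on median signals, which adds an offset to every spot and was followed by quantile normalization, the difference was -1.36. The raw brightness was 46 over a local background of 18.5 on the KO-labelled array and 165 over 18 on the WT array.

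Adam6b, the near copy of Adam6a in the same locus, had a signal of 115 on the KO-labelled array and 171 on the WT array, a difference of -0.41 ± 0.21. The copies therefore differed by unequal amounts at their probes. Since the genes are near-identical, how far each probe reads the other copy was not tested. Whether the arrays' labelling keeps strands apart in this locus was not tested either.

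Of the 3 members that fold or dispose of secretory proteins, Derl3 alone passed the limit. Derl3 encodes a channel component that returns misfolded proteins from the ER for degradation. It had a signal of 21.6 ± 3.0 on the KO-labelled array and 50.8 ± 5.55 on the WT array, a difference of -1.06 ± 0.25. This exceeded the limit by less than its error, and 786 of the measured genes (4.97%) were as low or lower. The difference was -0.97 when the 75th percentile was taken over probes well above background on both arrays, and -0.29 after the same normexp correction, an alternative chosen after the data were seen.

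Mzb1, an ER chaperone of immunoglobulin heavy chains, was spotted 10 times on each array, and all 10 spots were well above background on both. The spots ran from 11 to 21.8, with a median of 16.3, on the KO-labelled array, and from 15.0 to 19.1, also with a median of 16.3, on the WT array. The ranges overlapped, with the WT spots lying inside the range of the others. The mean signal was 16.5 ± 3.28 on the KO-labelled array and 16.9 ± 1.45 on the WT array (SD over 10 spots of 1 pool, a technical spread). The difference was 0.11 ± 0.32. Without scaling it was -0.06, so the gene has no settled direction.

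**Figure D2:**
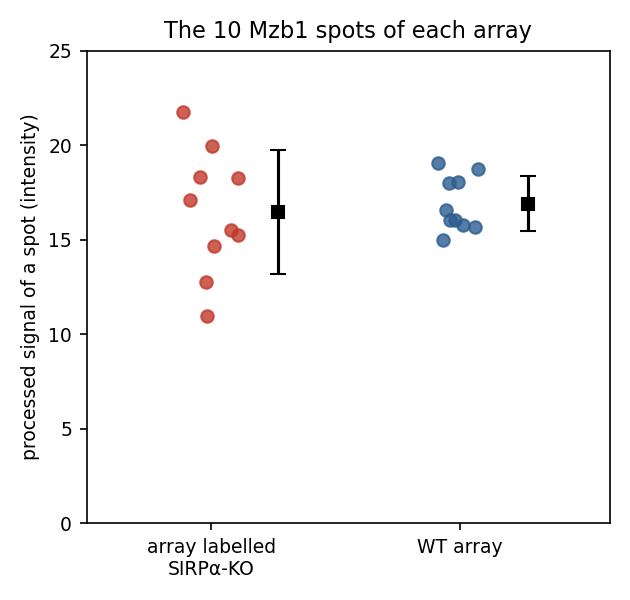
Processed signal (intensity) of the 10 Mzb1 spots on the KO-labelled array (left) and on the WT array (right); squares and bars are the mean and SD over spots. The means, 16.5 on the KO-labelled array and 16.9 on the WT array, are closer than the spread of the spots on either array.

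Fkbp11, a prolyl isomerase of the ER of secretory cells, stood on the other side of 0. Its signal was 123 ± 12.5 on the KO-labelled array and 91.7 ± 9.38 on the WT array. The difference was 0.59 ± 0.21, or 1.5-fold higher, more than its error and short of the limit. Among measured genes, 24.5% lay as far from 0 in either direction.

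Both transcription factors of the plasma cell state were bright on both arrays. Xbp1, which drives the expansion of the ER, had a signal of 1408 ± 141 on the KO-labelled array and 1277 ± 128 on the WT array, a difference of 0.31 ± 0.20. Over the other settings it ran from 0.14 without scaling to 0.64 after quantile normalization. Prdm1, which encodes Blimp-1, the repressor that ends the B cell program, had 866 ± 86.6 on the KO-labelled array and 976 ± 97.6 on the WT array. After scaling its difference was -0.0043 ± 0.20, and over other scalings it ran from -0.17 to 0.28 and so has no direction. Whether the Xbp1 probe reads the spliced, active form, the unspliced one or both was not tested.

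Sdc1, the surface proteoglycan known as CD138, and Tnfrsf17, the survival receptor known as BCMA, were dim. Sdc1 had 6.21 ± 2.19 on the KO-labelled array and 16.9 ± 2.5 on the WT array, at least 1.65-fold lower. Tnfrsf17 had 3.08 ± 1.88 on the KO-labelled array and 12.1 ± 2.03 on the WT array, at least 1.18-fold lower. Neither was well above background on the KO-labelled array, and the lowest signal counted there, 9.09, sets these bounds. Taken at their own values, below that level, the differences were -1.27 ± 0.55 and -1.80 ± 0.91. The signal of these spots on the KO-labelled array therefore cannot show whether these surface genes differed 2-fold.

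**Figure D3:**
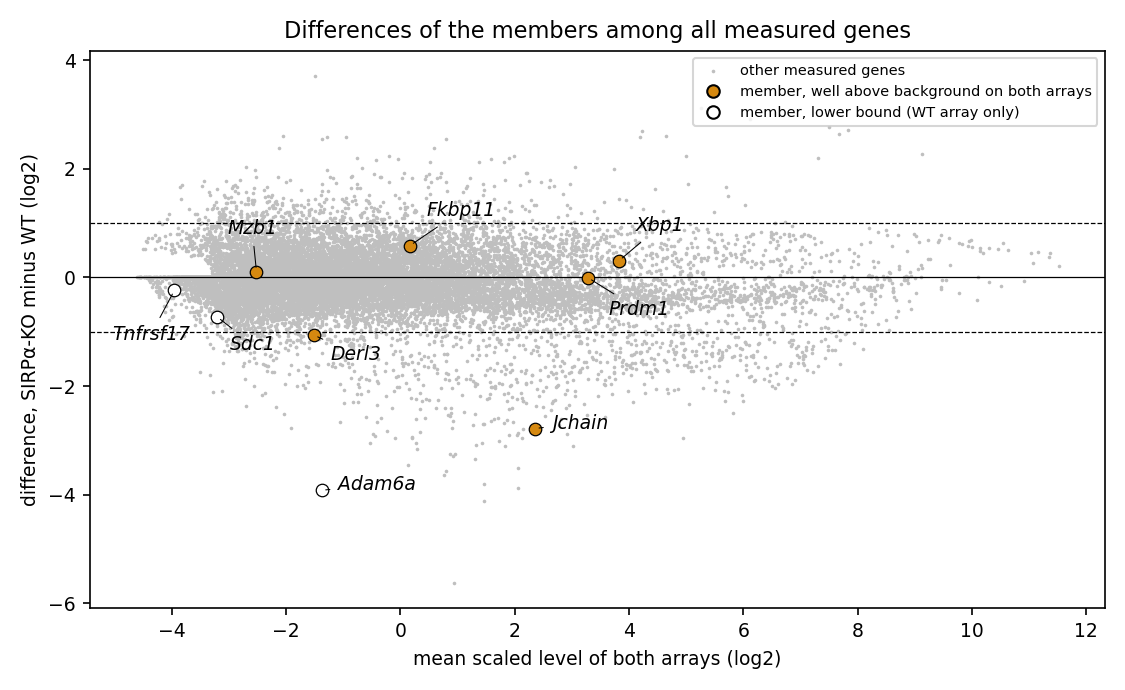
Difference of every measured gene (vertical axis, log2, SIRPα-KO minus WT) against its mean scaled level (horizontal axis, log2); grey points are other genes, orange points are members well above background on both arrays, open points are bounds, with the KO-labelled array not well above background, and dashed lines mark 2-fold. Jchain and Adam6a stand at the lower edge of the cloud, Derl3 at the 2-fold line, and the other members inside it.

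The genes nearest to Jchain in pattern were taken as those with the smallest Euclidean distance to its scaled log2 levels over the 2 arrays. They were the predicted gene Gm11595 (distance 0.073), Gabre (0.30), a subunit gene of the GABA receptor, and the olfactory receptor gene Olfr434 (0.30), at 6.78-fold, 5.15-fold and 6.90-fold lower. Gm11595 had further probes, and these differed by -0.03 and -0.01. Likeness over 2 arrays says little, since any gene with a like pair of values qualifies.

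Related genes were then read in 6 lists, which hold 94 further genes with a probe, 73 of them measured. Of these 73, 6 passed the limit as lower and 2 as higher, with a median of -0.07. Over all measured genes the shares were 5.42% lower and 3.11% higher, and nothing is read from the count of any list beside them. In the list of the plasma cell program, 3 of 17 measured genes were at least 2-fold lower and 1 was higher, with a median of -0.28. Txndc5, a protein disulfide isomerase abundant in plasma cells, was 2.28-fold lower, reading 25.3 on the KO-labelled array and 64.8 on the WT array. Ell2, the elongation factor that favours the secreted form of immunoglobulin transcripts, was at least 2.09-fold lower, with 9.03 on the KO-labelled array, not well above background, and 21.4 on the WT array. Its call was lost in 5 settings, with -0.99 after quantile normalization and -0.20 after normexp as the ends of their range. Mcl1, a survival factor that plasma cells and myeloid cells share, was 3.09-fold lower (-1.63 ± 0.21). Cxcr4, the chemokine receptor that retains plasma cells in bone marrow and that many leukocytes carry, was 5.25-fold higher (2.39 ± 0.33), with 46.7 on the KO-labelled array and 10.0 on the WT array. After normexp Cxcr4 was at 0.64 and Txndc5 at -0.50, short of the limit.

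The other measured genes of that program were short of the limit at the probe used. Trp53inp1, a p53 target named after its values were seen, differed by 0.29 ± 0.21 at that probe and by -2.09 ± 0.22 at its other probe, so it has no settled direction. Irf4, a transcription factor required for plasma cells, differed by -0.29 ± 0.42, less than its error. It had 11.1 on the KO-labelled array, not well above background, and 15.3 on the WT array. Pou2af1, a coactivator of immunoglobulin transcription, differed by -0.08 ± 0.20. The brightest genes of the list were Eaf2, at 0.39, and the gut-homing receptor gene Ccr9, at -0.81. Bhlha15, Pim2 and Sec11c were not well above background on either array.

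The general machinery of the secretory pathway was read next. Of 24 measured genes for entry into the ER and folding, 0 passed the limit in either direction at the probe used, beside 5.42% lower and 3.11% higher of all genes, with a median of -0.05 and a range of -0.54 to 0.85. The chaperone gene Hspa5 differed by 0.06 ± 0.20, with 3563 on the KO-labelled array and 3830 on the WT array. Sec61b, a subunit of the channel into the ER, differed by -0.43 at its probe of higher mean level and by 1.97 at the other, the opposite way, so it has no settled direction. Among 15 measured genes of the unfolded protein response and ER degradation, 1 was at least 2-fold lower and 0 were higher, with a median of 0.14. That gene was Edem1, which marks misfolded glycoproteins for disposal. It was 2.67-fold lower, with 294 on the KO-labelled array and 885 on the WT array (-1.42 ± 0.20), and at -0.995 after normexp, just short of the limit. Ern1, which encodes the sensor that splices Xbp1 RNA, differed by -0.46 ± 0.20. Derl2, a relative of Derl3 and the brightest gene of this list, differed by -0.68, and its further probes by -0.45 and -0.45.

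**Figure D4:**
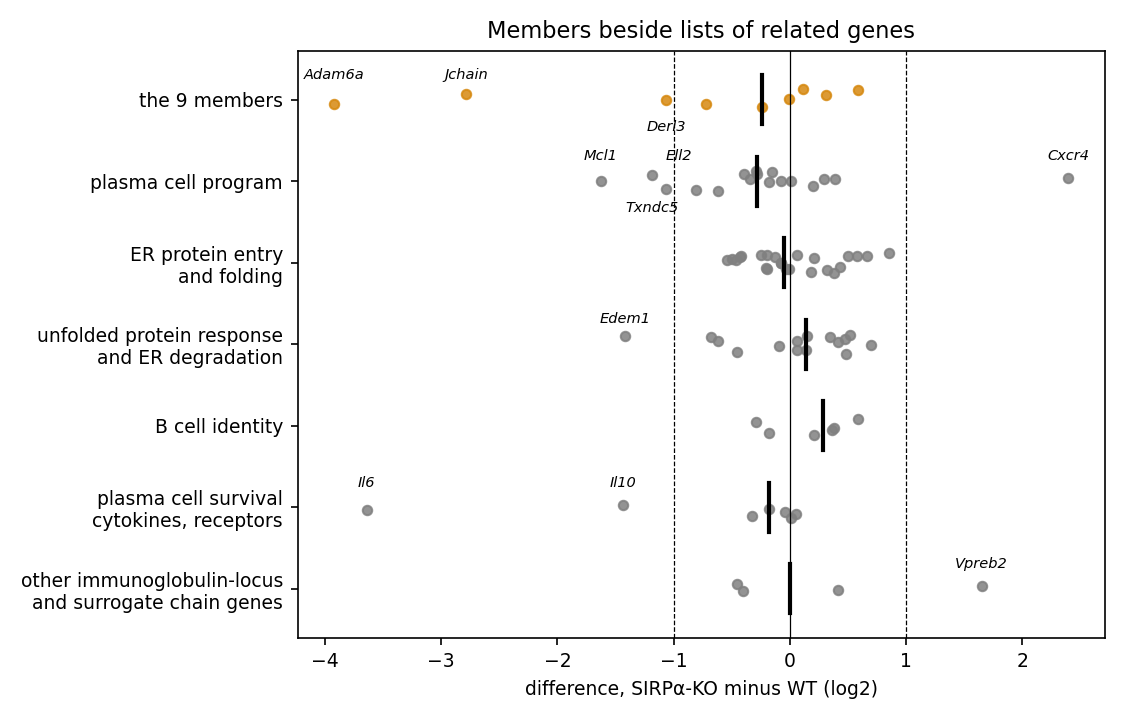
Difference (horizontal axis, log2, SIRPα-KO minus WT) of the 9 members and of the measured genes of each list; each point is 1 gene, black bars are medians, dashed lines mark 2-fold, and genes past it are named. With bounds drawn as if they were values, the medians lie between -0.28 and 0.28, while single genes of several lists lie past 2-fold.

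The genes of B cell identity read here are turned down as plasma cells form. Of 6 measured, 0 passed the limit in either direction, with a median of 0.28, beside 5.42% lower and 3.11% higher of all genes. Pax5, the factor that holds the B cell state, differed by 0.21 ± 0.21, and Ciita, the regulator of MHC class II genes, by 0.36 ± 0.20. Ms4a1, which encodes CD20, differed by 0.43 ± 0.21. In the list of survival signals for plasma cells, 2 of 7 measured genes were at least 2-fold lower and 0 higher, with a median of -0.18. These were Il6, 12.5-fold lower, and Il10, 2.70-fold lower, both also cytokines of macrophages. Of the other genes of the immunoglobulin loci and of the surrogate light chain, 4 were measured, with 0 lower and 1 higher. Vpreb2, a surrogate light chain gene of early B cells, was 3.14-fold higher (1.65 ± 0.22), with 86.6 on the KO-labelled array and 31.0 on the WT array, and 0.76 after normexp. Vpreb3 differed by 0.41 ± 0.26 and Igll1 was at least 1.37-fold lower, with 8.52 on the KO-labelled array, not well above background, and 14.0 on the WT array.

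Markers of the cells a sort could hold are given beside these values, with the summed scaled signal of each list in multiples of the 75th percentile. Since single genes carried much of each sum, the sum is also given without the gene that differed most, an alternative added after the data were seen. Of 9 plasma cell markers with a probe, the members other than Adam6a plus Irf4, 6 were well above background on the KO-labelled array and 9 on the WT array. They summed to 29.5 on the KO-labelled array and 37.9 on the WT array, and without Jchain to 27.5 on the KO-labelled array and 24.5 on the WT array, so the lower sum rested on Jchain. Of 12 B cell markers, 10 were well above background on the KO-labelled array and 11 on the WT array, with a median difference of 0.17. Their sum was 35.9 on the KO-labelled array and 39.3 on the WT array, and 32.2 on the KO-labelled array and 23.9 on the WT array without Cr2. That gene, which encodes a complement receptor of B cells, was 4.21-fold lower at the probe used (-2.07 ± 0.20) and differed by 0.31 at its other probe, so it has no settled direction.

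Of 12 red pulp macrophage markers, 10 were well above background on the KO-labelled array and 11 on the WT array. Their sum was 203 on the KO-labelled array and 144 on the WT array, and 86.7 on the KO-labelled array and 76.3 on the WT array without Adgre1, which encodes F4/80. The median difference of the 11 measured was -0.15, with 6 below 0 and 5 above. The limit was passed by 0 as lower and 2 as higher, beside 5.42% lower and 3.11% higher of all measured genes. These 2, named after their values were seen, were Cd5l (1.46 ± 0.22) and the complement gene C1qc (1.11 ± 0.20). Among those below 0 were another complement gene, C1qb (-0.34 ± 0.21), and the scavenger receptor gene Cd163 (-0.57 ± 0.24). Adgre1 differed by 0.78 ± 0.20 at the probe used and by -0.47 at its other probe, so it has no settled direction. The probe used passed the limit after quantile normalization (1.05), cyclic loess (1.02) and normexp (1.04), and in the authors' table (1.03). Spic, the transcription factor gene of these cells, differed by 0.17 ± 0.22. Of 7 markers of plasmacytoid dendritic cells, which also use Xbp1 and Mzb1, 7 were well above background on each array. These summed to 1288 on the KO-labelled array and 817 on the WT array, and to 14.0 on the KO-labelled array and 22.3 on the WT array without Siglech. The 7 T cell markers with a probe, all well above background on each array, summed to 187 on the KO-labelled array and 364 on the WT array, and without Cd8b1 to 71.7 on the KO-labelled array and 86.1 on the WT array, with a median difference of -0.01. The part of other cells in the values of Jchain and Derl3 was not tested, and in RNA of sorted pools fewer cells of a type and less RNA per cell cannot be told apart.

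**Figure D5:**
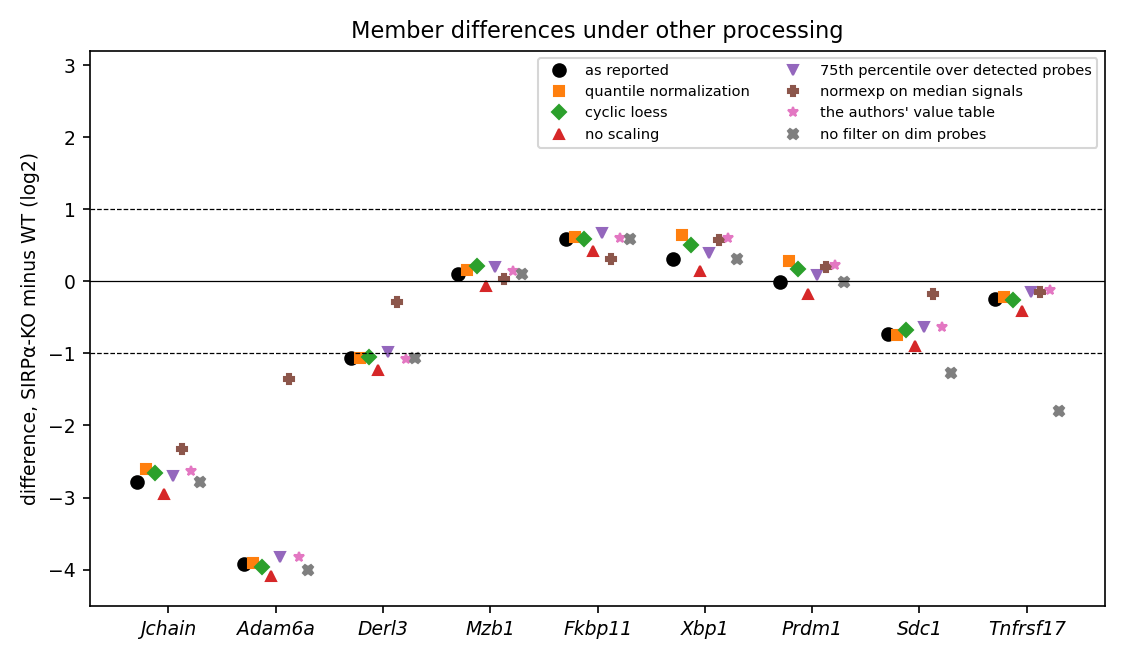
Difference of each member (vertical axis, log2, SIRPα-KO minus WT) as reported and under 7 other ways of processing the same arrays; dashed lines mark 2-fold. Jchain and Adam6a stay below -1 in all of those drawn, Derl3 moves to -0.29 with normexp, and Sdc1 and Tnfrsf17 pass the limit where values below background are taken as they stand.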

How the data were processed

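The deposited scanner tables hold spot intensity on a linear scale, background-subtracted and detrended within each array with Feature Extraction (Agilent, version 11.0.1.1; design 26655, build mm9), as recorded per the file headers. The authors' deposited value table is on a log2 scale with a median of 4.56 on each array; its normalization is not stated, and it ranked probes as the scanner signal did. Processed signals were divided by the 75th percentile over non-control spots and taken to log2. Spots flagged as non-uniform or population outliers (167 on the KO-labelled array, 190 on the WT array) were left out, and the remaining spots of a probe were averaged. Names were assigned through RefSeq accessions (GRCm38.p6, names only; 27200 of 39386 probes matched). A gene took its probe of highest mean signal, and was measured when well above background on 1 array or more. The dim side was otherwise set to the lowest signal well above background or its own, whichever was higher. The fold is a bound where that side's own signal was the lower. With 1 array per genotype no test was made, and precision is limited by having 1 array each. The rule for named genes took all members, Sirpa, the 3 largest called differences each way and the 2 brightest WT genes of each list, 9 genes fixed by name (1 of them is not reported here), every measured immunoglobulin gene, and the 3 genes nearest to Jchain. Members and lists were chosen with earlier results of these data known. Tools were Python 3.11.15, pandas 2.3.3 and limma 3.58.1 (quantile, cyclic loess and normexp with an offset of 50). The gene step was tested on simulated data. Alternatives changed the scaling, the background correction, the source of the values, the filter on dim probes, the flags, the fold limit and the probe of a gene.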

Additional observations from a re-analysis of the deposited data

How the results depend on the processing

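No paired analysis was possible because each genotype had 1 array, and no array could be left out. Normexp on mean signals was not run, since the tables used hold median signals; normexp on median signals was added after the data were seen. The 3 members at least 2-fold lower became 5 with no filter on dim probes, where Sdc1 and Tnfrsf17 were taken at their own values, and 2 with the percentile over detected probes, after normexp, over genes well above background on both arrays or at 3-fold. At a 1.5-fold limit the 3 lower became 4, with Sdc1 added at its bound, and the 0 higher became 1 (Fkbp11). Quantile normalization put Sirpa at 0.80 and the authors' table put it at 0.75, against 0.51 as reported. The median of the other immunoglobulin genes, 0.00, was -0.36 with no filter and 0.41 over genes well above background on both arrays. Among the members and the named list genes, no difference reported as at least 2-fold turned its sign in the up to 11 settings that give a difference. After normexp Derl3, Cxcr4, Vpreb2, Txndc5, Ell2 and Edem1 were no longer 2-fold apart. Other genes, among them Cr2, Cd5l, C1qc and those nearest to Jchain, were not followed through the settings. Cr2 turned its sign at its other probe. The all-gene median of -0.08 moved to -0.25 when no scaling was applied. Jchain ran from -2.95 to -2.32 and Adam6a from -4.09 to -1.36, the weakest of each after normexp. Normexp moved 15 of 23 related genes by more than their error, and quantile normalization, which adds no offset, moved 9. The normexp offset shrinks dim genes by construction, but bright genes moved as well. Eaf2 went from 0.39 to 0.67 after normexp, and Derl2 from -0.68 to -0.17. Over all genes, 858 lower and 492 higher became 732 and 674 after quantile normalization, 750 and 639 after cyclic loess, 752 and 633 with the percentile over detected probes, 730 and 650 in the authors' table, 1155 and 304 without scaling, 449 and 201 after normexp, 1642 and 877 with no filter, 2086 and 1805 at 1.5-fold, and 370 and 103 at 3-fold.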

Other observations

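The genes that stand next to the lower members on their chromosomes were read as well, by a rule added after the members' values were seen: up to 2 coding genes with a probe on each side, in the RefSeq order. Around Jchain, Adam6a and Derl3, 10 such neighbours were measured, and 0 were at least 2-fold lower or higher, with differences from -0.47 to 0.90. Beside 5.42% lower and 3.11% higher of all measured genes, nothing is read from this count. Next to Jchain lie the enamel genes Ambn (-0.35 ± 0.34) and Enam (0.77 ± 0.21), and on the other side Utp3 (0.22 ± 0.21), which serves ribosome assembly, and Rufy3 (0.87 ± 0.22). Next to Derl3 lie Mif, a macrophage cytokine gene (0.52 ± 0.20), and Smarcb1, a chromatin remodelling subunit gene (0.21 ± 0.24). On the side of the heavy chain locus nearest Ighm, Tedc1 was 3.01-fold higher at the probe used (1.59 ± 0.24). Tedc1 was named after its values were seen. Tedc1 and Mif had further measured probes, whose differences are not given here.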
